A study of Mus musculus with 59 samples.

Results

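Gastrocnemius muscle that had regenerated for 30 days after cardiotoxin injury, in mice given hydroxycitrate (HC), was compared with uninjured muscle across all genes. The comparison holds 6 of the 59 libraries of the series: the 3 gastrocnemius libraries labelled CTX-HC at 30 days post injury (CTX-HC 30 DPI) and the 3 with the treatment label No (control). All mice were adult wild type C57BL/6 males on a standard diet. The CTX-HC 30 DPI mice received 10 µM cardiotoxin (CTX), a snake venom toxin that kills muscle fibres, into the left hind limb, and HC was then mixed into their food until harvest. HC is a plant acid that inhibits ATP citrate lyase (ACLY), the enzyme that makes cytosolic acetyl-CoA from citrate. The control mice received neither CTX nor HC. The 3 CTX 30 DPI libraries, from mice injected in the same way and fed without HC, are given beside them. No gastrocnemius group received HC without injury, so injury and HC cannot be told apart in the comparison with controls. Each library came from 1 mouse. Whether the control muscles had a sham injection, and which hind limb they came from, is not given in the sources used here.

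Skeletal muscle regenerates from satellite cells, stem cells marked by Pax7 that lie against the fibre. After injury they divide and turn on the myogenic factors Myf5, Myod1 and Myog, and they fuse into new fibres that first use embryonic and neonatal myosins and later adult ones. Macrophages clear the debris, fibro-adipogenic progenitors lay down matrix, and nerve endings and capillaries are rebuilt. The mouse gastrocnemius is mainly fast muscle built on the myosins Myh4, Myh1 and Myh2, with a smaller slow part built on Myh7. The question was how far the treated muscle still differed from uninjured muscle at this late stage of regeneration.

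Values are gene counts that the authors normalized by the median of ratios, so they have no unit and compare libraries rather than genes of different length. The libraries of a group are numbered 1 to 3, a name only, and values are given in that order, with CTX-HC replicate shortened to HC replicate. Estimated depth was 16.0 to 30.7 M reads in CTX-HC 30 DPI and 23.1 to 28.5 M reads in control. CTX-HC replicate 3 stood apart. It was the shallowest, its Spearman correlations with the other 5 libraries were 0.885 to 0.916 where other pairs reached 0.988, and Ptprc, which encodes the pan-leukocyte protein CD45, was 38.7, 45.8 and 2855 in CTX-HC 30 DPI, against 147, 86.6 and 146 in control. Control replicates 1 and 3 in turn held more macrophage transcripts than control replicate 2, with Cd68 at 341 and 251, against 70.3. Skeletal muscle genes led in all 6 libraries, with Ttn (titin) at 4913620, 5022280 and 3932630 in CTX-HC 30 DPI and 5165210, 5903860 and 4524490 in control, and Acta1 (skeletal actin) at 660985, 752606 and 389004 in CTX-HC 30 DPI and 614475, 643159 and 639562 in control. These are bulk samples, in which fewer cells of a type and less RNA per cell cannot be told apart. Results that rest on HC replicate 3 are given with and without it, and the medians of gene lists also where another single library moved them.

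**Figure D1:**
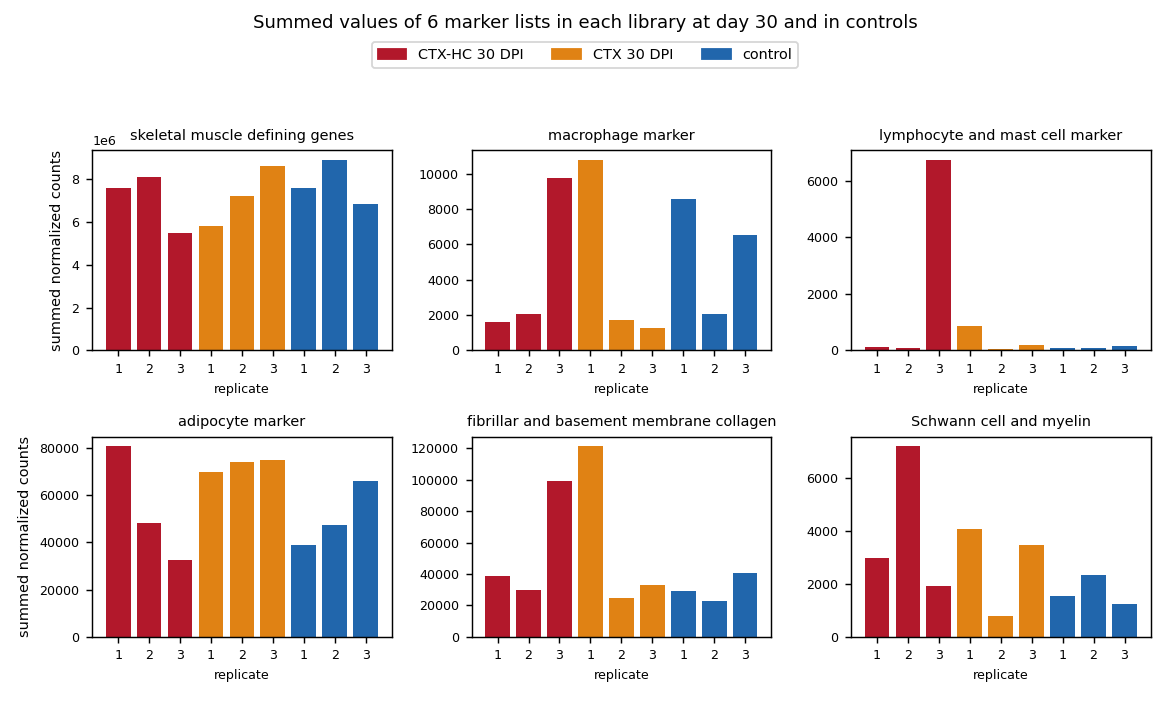
Summed normalized counts (y axis) of 6 marker lists in the 9 libraries (x axis, replicate within group), CTX-HC 30 DPI in red, CTX 30 DPI in orange and control in blue. The lymphocyte and mast cell sum was 6728 in CTX-HC replicate 3 and at most 868 in any other library shown, while the macrophage sum was high in HC replicate 3, in CTX replicate 1 and in control replicates 1 and 3.

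Of 24972 genes, 14033 were tested with limma, and 0 passed an adjusted p of 0.05 in CTX-HC 30 DPI against control. The smallest adjusted p was 0.066. At an unadjusted p under 0.05, 217 genes (1.55%) were higher and 171 (1.22%) lower in CTX-HC 30 DPI. If no gene differed, a share of 0.05 would still be expected under that threshold, more than both directions gave together. At the study's threshold, an unadjusted p of 0.05 and a log2 fold change of 1 or more in either direction, the counts were 132 higher and 64 lower. The 3 CTX-HC 30 DPI libraries were all above the 3 controls in 662 genes (4.72%) and all below them in 489 (3.48%). The median log2 fold change over all genes tested was -0.000228, with quartiles at -0.19 and 0.22, and the median standard error (SE) was 0.316. Single libraries moved the 388 genes at an unadjusted p under 0.05 by over 1.5 times. That count was 991 without CTX-HC replicate 2, 796 without CTX-HC replicate 3 (336 higher, 2.42%, and 460 lower, 3.31%), 251 without control replicate 1 and 242 without control replicate 2. No gene is therefore called changed here, and the values below describe these libraries. An unadjusted p under 0.05 or groups that do not overlap, as given below, do not mark a gene as changed.

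**Figure D2:**
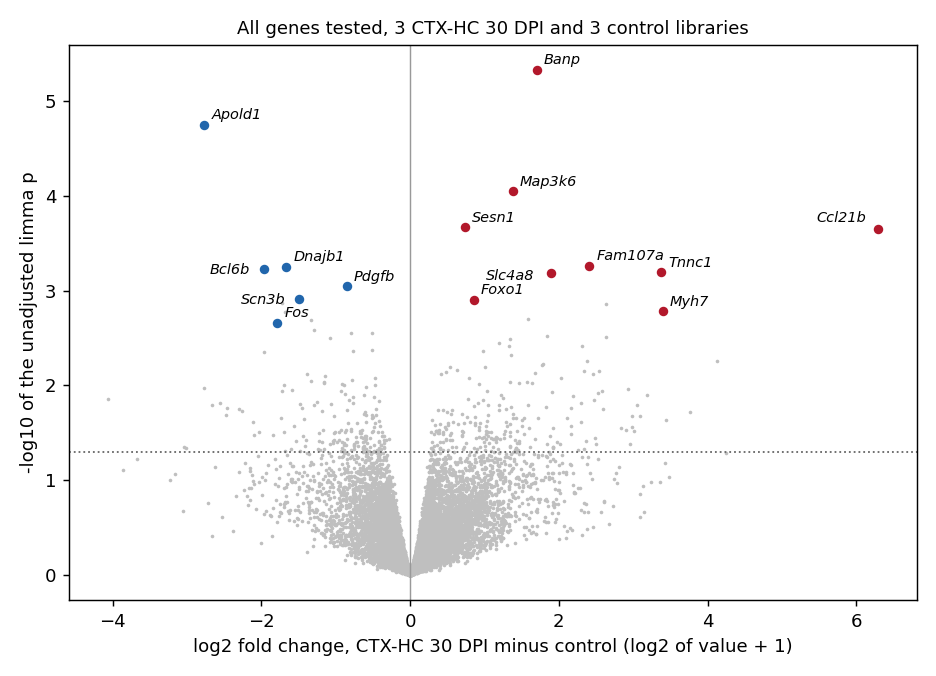
Each grey point is 1 of the 14033 genes tested, with the log2 fold change of CTX-HC 30 DPI over control on the x axis and -log10 of the unadjusted limma p on the y axis, where the dotted line marks 0.05. Coloured points are named genes, red when higher and blue when lower in CTX-HC 30 DPI, and Banp lies highest at a log2 fold change of 1.70. The place of Ccl21b on the x axis is set by the pseudocount, since it was listed at 0 in all 3 controls.

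The genes with the smallest p were chosen after their values were seen. Banp, a chromosome 8 gene (121947972 to 122029260 in GRCm38) for a DNA-binding nuclear protein, was 424, 436 and 571 in CTX-HC 30 DPI, against 163, 120 and 155 in control. Its log2 fold change was 1.70 ± 0.23 (SE) with an adjusted p of 0.066 by limma, and the groups did not overlap. The CTX 30 DPI libraries, at 264, 329 and 433, were above all controls, and the highest of them lay within the HC range. Apold1, a gene that endothelial cells induce rapidly under stress (chromosome 6, 134982001 to 134986836), was 90.5, 24.9 and 32.6 in CTX-HC 30 DPI, against 289, 220 and 392 in control. All 3 HC libraries were lower, with a log2 fold change of -2.77 ± 0.42 (SE) and an adjusted p of 0.125 by limma. Without CTX-HC replicate 1, the one with the highest Apold1 value of its group, the adjusted p was 0.00802 and the log2 fold change -3.31. In CTX 30 DPI Apold1 was 72.8, 50.5 and 69.8, also below all controls (log2 fold change -2.18 ± 0.42, SE).

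Several of the next genes encode regulators of stress and growth signalling. Sesn1, a p53 and FOXO target that restrains mTORC1, was 600, 576 and 656 in CTX-HC 30 DPI, against 348, 382 and 371 in control, a narrow spread in both groups and a log2 fold change of 0.73 ± 0.15 (SE). Foxo1, a transcription factor of fasting and atrophy, was 2098, 1601 and 2183 in CTX-HC 30 DPI, against 1226, 795 and 1271 in control (log2 fold change 0.85 ± 0.21, SE). Map3k6, a stress-activated MAP kinase kinase kinase, was 331, 268 and 261 in CTX-HC 30 DPI, against 138, 82.99 and 113 in control (1.38 ± 0.25, SE). In these 3 genes every HC library was above every control. Fam107a, a glucocorticoid-responsive actin-binding protein, was 114, 109 and 45.8 in CTX-HC 30 DPI, against 14.99, 11.4 and 18.8 in control (2.41 ± 0.53, SE). Slc4a8, a sodium-driven bicarbonate exchanger, was 159, 168 and 439 in CTX-HC 30 DPI, against 65.6, 52.7 and 63.2 in control, highest in HC replicate 3. Ccl21b, a lymphatic chemokine gene with near-identical copies that short reads may not separate, was 71.5, 60.9 and 106 in CTX-HC 30 DPI and listed at 0 in all 3 controls. It was also listed at 0 in CTX replicates 1 and 3 and was 70.9 in CTX replicate 2, so a value of this kind also occurred without HC.

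Genes on the low side included chaperone and vascular genes. Dnajb1, an Hsp40 co-chaperone, was 188, 162 and 200 in CTX-HC 30 DPI, against 948, 422 and 489 in control (log2 fold change -1.66 ± 0.37, SE). Bcl6b, a transcriptional repressor expressed in endothelium, was 129, 54.2 and 102 in CTX-HC 30 DPI, against 421, 231 and 447 in control (-1.96 ± 0.44, SE). Pdgfb, the endothelial growth factor that recruits pericytes, was 772, 761 and 734 in CTX-HC 30 DPI, against 1405, 1185 and 1523 in control (-0.85 ± 0.20, SE). All 3 were below every control in each HC library. Scn3b, a sodium channel beta subunit, was 14.6, 39.8 and 47.3 in CTX-HC 30 DPI, against 84.3, 79.6 and 100.1 in control. In CTX 30 DPI, Dnajb1 was 217, 103.9 and 210 and Pdgfb was 899, 1139 and 854, also below all controls. The 17 endothelial markers had a median log2 fold change of -0.08, with 5 positive and 12 negative, and the most abundant, Ptprb (VE-PTP) and Cdh5 (VE-cadherin), were at -0.08 and -0.30 with overlapping groups. Without HC replicate 3 the endothelial median was 0.08, 10 were positive, and 0 were higher and 2 lower at an unadjusted p under 0.05 (background 2.42% and 3.31%). Without HC replicate 1 the median was -0.41. With all libraries Prox1, the lymphatic transcription factor, was the one with an unadjusted p under 0.05, at 373, 87.6 and 474 in CTX-HC 30 DPI, against 131, 78.7 and 82.7 in control.

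**Figure D3:**
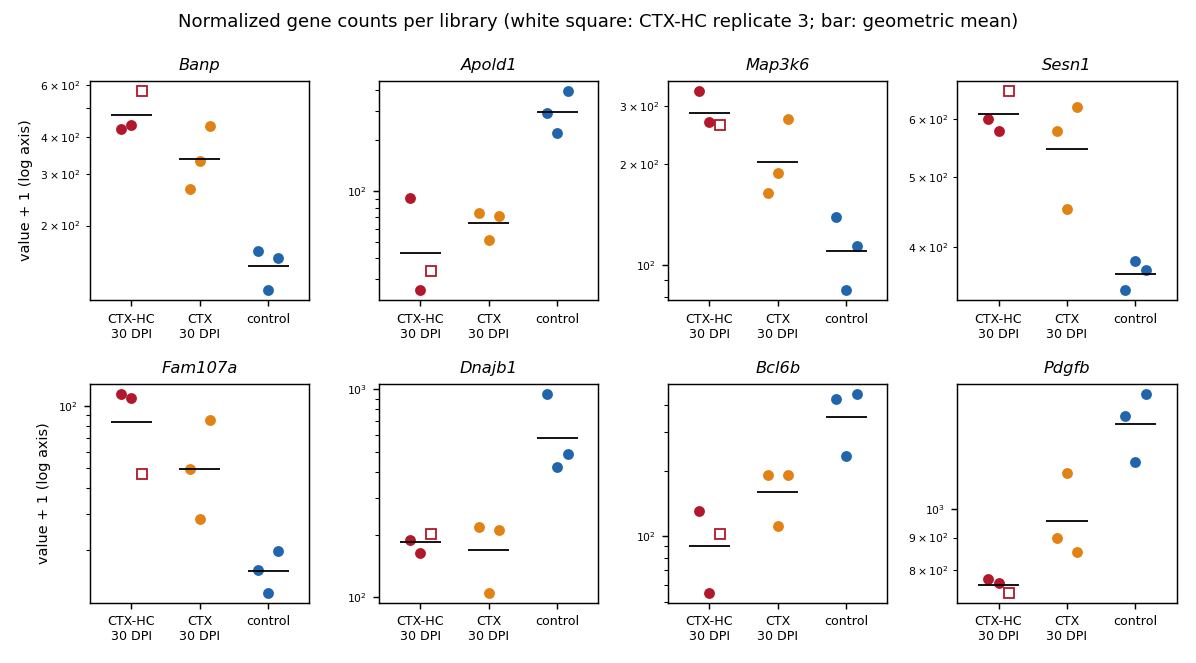
Normalized counts plus 1 on a log axis (y) of 8 genes with small p in CTX-HC 30 DPI (red), CTX 30 DPI (orange) and control (blue), 1 point per library, with HC replicate 3 as a white square and bars at the geometric mean. Banp, Map3k6, Sesn1 and Fam107a lie above the controls and Apold1, Dnajb1, Bcl6b and Pdgfb below them in all 3 CTX-HC 30 DPI libraries.

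Slow fibre genes formed the group with the largest positive median among the muscle lists. Troponin, the calcium switch of the thin filament, has slow forms of its subunits, Tnnc1 (calcium-binding, shared with heart), Tnnt1 (tropomyosin-binding) and Tnni1 (inhibitory), and their promoters are shown because these 3 genes were high together. The RefSeq windows of 300 bases around the annotated start (GRCm38.p6) are printed on the gene's strand, for each gene the first start that the table lists, Tnnc1 at chr14:31208062-31208361, Tnnt1 at chr7:4515926-4516225 and Tnni1 at chr1:135799171-135799470. The Tnni1 start lies inside the gene's full RefSeq span, which runs from 135783033 to 135810989 on chromosome 1, while those of Tnnc1 and Tnnt1 are the ends of theirs. Capitals mark E-boxes (CANNTG, the letters bound by myogenic factors) and MCAT matches (CATTCC or its reverse complement GGAATG, bound by TEAD factors), with overlapping matches allowed.
Tnnc1: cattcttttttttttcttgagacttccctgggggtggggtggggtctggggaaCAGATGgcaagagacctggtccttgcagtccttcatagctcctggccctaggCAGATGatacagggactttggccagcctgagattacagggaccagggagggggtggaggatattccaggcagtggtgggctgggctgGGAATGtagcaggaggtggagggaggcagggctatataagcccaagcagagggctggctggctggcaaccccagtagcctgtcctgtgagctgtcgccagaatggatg
Tnnt1: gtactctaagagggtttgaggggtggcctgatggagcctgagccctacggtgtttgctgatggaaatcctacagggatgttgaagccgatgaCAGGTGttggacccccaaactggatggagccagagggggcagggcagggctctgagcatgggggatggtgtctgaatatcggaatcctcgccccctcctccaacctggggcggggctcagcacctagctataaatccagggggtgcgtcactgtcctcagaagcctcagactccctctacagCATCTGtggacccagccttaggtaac
Tnni1: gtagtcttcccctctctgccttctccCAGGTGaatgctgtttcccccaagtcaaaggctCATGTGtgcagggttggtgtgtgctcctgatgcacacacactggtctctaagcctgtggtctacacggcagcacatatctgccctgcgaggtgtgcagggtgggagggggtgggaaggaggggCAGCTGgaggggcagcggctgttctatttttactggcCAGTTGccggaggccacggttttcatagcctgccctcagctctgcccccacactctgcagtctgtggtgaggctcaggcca
The window of Tnnc1 held 2 E-boxes and 1 MCAT match, that of Tnnt1 2 E-boxes and that of Tnni1 4. Of the 16 slow fibre genes with a window, 16 held an E-box, against 72.1% of the windows of 27025 genes, and 5 (31.2%) held an MCAT match, against 14.6%. A match describes the letters and not a bound site.

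Tnnc1 was 4697, 1121 and 3279 in CTX-HC 30 DPI, against 853, 133 and 132 in control, and averaged 3032 ± 1800 in CTX-HC 30 DPI and 373 ± 416 in control (SD, n = 3 each). Tnnt1 was 3751, 915 and 3301 in CTX-HC 30 DPI, against 848, 271 and 207 in control. Tnni1 was 3810, 1087 and 4059 in CTX-HC 30 DPI, against 1044, 339 and 196 in control. Every HC library was above every control in these 3 genes, but HC replicate 2 was close to control replicate 1, the highest control. The log2 fold changes were 3.38 ± 0.76 for Tnnc1, 2.63 ± 0.65 for Tnnt1 and 2.64 ± 0.73 for Tnni1 (SE), with unadjusted p of 0.00064, 0.00137 and 0.00312 by limma. Myh7, the slow myosin heavy chain, was 42549, 6810 and 22740 in CTX-HC 30 DPI, against 7378, 859 and 883 in control (3.40 ± 0.86, SE), and here HC replicate 2 lay within the control range.

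Of the 19 slow fibre genes, 16 had a positive log2 fold change and 9 an unadjusted p under 0.05, all 9 higher, against 1.55% of all genes tested. The other 5 of the 9 were Tpm3 (slow tropomyosin), Atp2a2 (the slow and cardiac calcium pump), Myl2 and Myl3 (slow myosin light chains) and Myh7b, with log2 fold changes of 1.79 to 2.58. Atp2a2 was 35958, 8319 and 17021 in CTX-HC 30 DPI, against 9462, 3018 and 4315 in control. Tead1, a transcription factor that binds MCAT elements, was 15270, 15322 and 11370 in CTX-HC 30 DPI, against 16419, 14506 and 16064 in control, and Sox6, a repressor of slow genes in fast fibres, had a log2 fold change of -0.47 ± 0.26 (SE). In 6 of the 19 slow fibre genes every HC library was above every control (background 4.72%). Tnnc1, Tnnt1, Tnni1, Myh7 and Atp2a2 followed the same libraries. Each was lowest of the HC libraries in HC replicate 2 and highest of the controls in control replicate 1. The counts of slow genes are therefore not independent, and the backgrounds do not test them. The median log2 value of the list was 11.90, 9.84 and 11.17 in CTX-HC 30 DPI, against 10.03, 8.09 and 9.45 in control. HC replicate 2 thus lay within the control range. The median log2 fold change of the list was 1.79, against -0.000228 over all genes tested. It was 1.44 without HC replicate 3, 1.37 without HC replicate 1 and 2.51 without control replicates 1 and 3, which left 1 control library. In CTX 30 DPI against the same controls the median was 1.33, with 8 genes at an unadjusted p under 0.05, all higher (background 1.62%). Tnnc1 was 3452, 843 and 1466, and Myh7 36997, 8868 and 15566, in those libraries. The difference between HC and no HC at day 30 had no slow gene at an unadjusted p under 0.05 (background 0.542% higher, 0.214% lower). With so low a background, that none passed does not show equal levels. The median of that difference was 0.31.

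**Figure D4:**
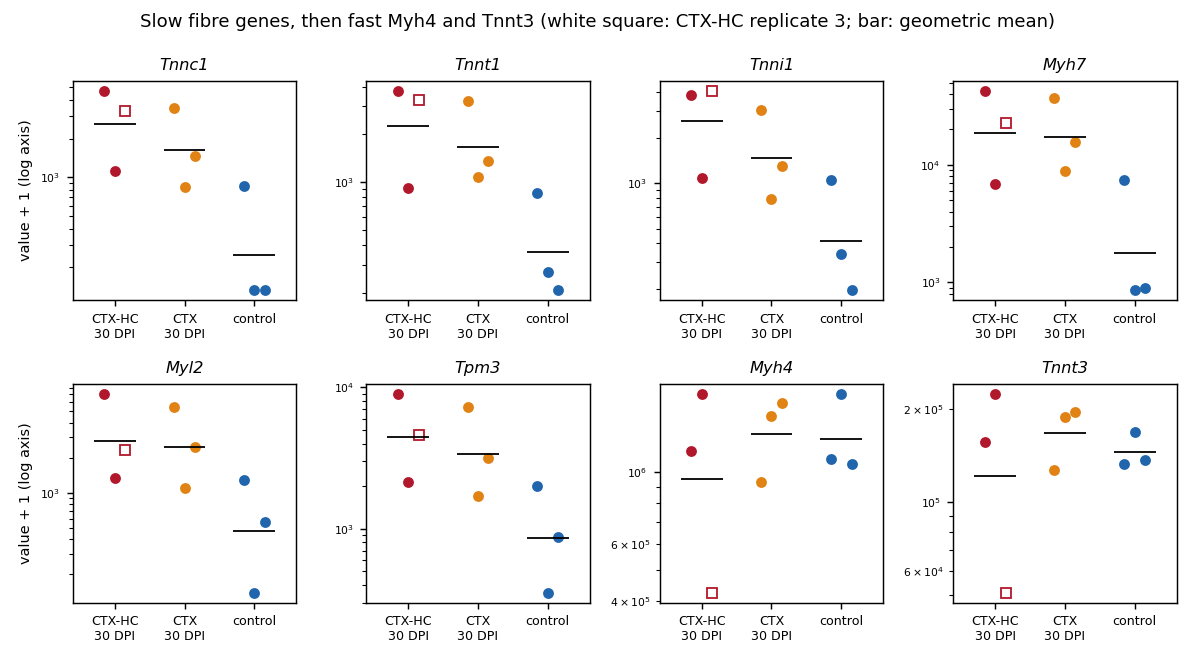
Normalized counts plus 1 on log axes (y) of 6 slow fibre genes and of fast Myh4 and Tnnt3, in CTX-HC 30 DPI (red), CTX 30 DPI (orange) and control (blue), 1 point per library, HC replicate 3 as a white square and bars at the geometric mean. The slow genes lie lower in 2 or 3 of the 3 controls than in the injured groups, and Myh4 and Tnnt3 overlap between groups apart from the low HC replicate 3.

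Fast fibre genes did not mirror this. Myh4, the IIb myosin and most abundant myosin by counts here, was 1159910, 1733510 and 425246 in CTX-HC 30 DPI, against 1096090, 1730360 and 1055390 in control, and Atp2a1, the fast calcium pump, was 889727, 1095710 and 509400 in CTX-HC 30 DPI, against 924839, 1107790 and 783332 in control. Only HC replicate 3 was below the controls in both. Of 21 fast genes 18 had a negative log2 fold change, with a median of -0.26, but without HC replicate 3 the median was 0.12 and 14 were positive, and without HC replicate 2 it was -0.55. The myosin of intermediate IIx fibres, Myh1, was 160236, 85584 and 264770 in CTX-HC 30 DPI, against 57619, 66010 and 82936 in control, higher in all 3 HC libraries with a log2 fold change of 1.17 ± 0.58 (SE) and an unadjusted limma p of 0.064. Prkag3, the AMPK gamma subunit of fast fibres, was the one fast gene at an unadjusted p under 0.05, with a log2 fold change of -0.79 ± 0.33 (SE), and without HC replicate 3 it was -0.69 with an unadjusted limma p of 0.086. The 14 genes that define skeletal muscle as a whole, Ttn and Acta1 among them, had a median of -0.14, and 0.17 without HC replicate 3.

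Oxidative genes leaned upward in HC replicates 1 and 2 and were low in HC replicate 3. Atp5b, the beta subunit of ATP synthase, was 67017, 57836 and 26630 in CTX-HC 30 DPI, against 40380, 42187 and 40153 in control. HC replicates 1 and 2 were above all controls for Atp5b and HC replicate 3 below all of them. Of 34 oxidative phosphorylation subunits 30 were positive with a median of 0.13 and 0 reached an unadjusted p under 0.05, whereas without HC replicate 3 the median was 0.55, all 34 were positive and 17 were higher at an unadjusted p under 0.05 (background 2.42%). The 20 tricarboxylic acid cycle genes moved likewise, with a median of 0.15, and 0.58 without HC replicate 3. Without HC replicate 1 both medians were negative, at -0.10 for the subunits and -0.16 for the cycle. In CTX 30 DPI against the same controls the medians were 0.20 with 33 of 34 subunits positive and 0.28 with 20 of 20 cycle genes positive. For CTX-HC 30 DPI minus CTX 30 DPI they were -0.10 and -0.11, with 5 of 34 and 2 of 20 positive. The subunits were measured in the same libraries, so their counts are not independent.

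Fatty acid oxidation genes had 31 of 32 positive log2 fold changes and a median of 0.30, and 0.65 without HC replicate 3, when 17 were higher at an unadjusted p under 0.05 (background 2.42%). Without HC replicate 1 the median was 0.03. In CTX 30 DPI against the same controls it was 0.15, with 23 of 32 positive. Pdk4, the kinase that shuts pyruvate out of the cycle, was 21804, 22639 and 12437 in CTX-HC 30 DPI, against 8738, 3411 and 18510 in control, and control replicate 3 lay within the HC range (log2 fold change 1.16 ± 0.51, SE). Lpl, the lipase that takes up fatty acids from lipoproteins, was 21434, 11612 and 5578 in CTX-HC 30 DPI, against 8930, 3681 and 9175 in control. Acot1 (an acyl-CoA thioesterase), named after its values were seen, was 21.6, 39.5 and 17.05 in CTX-HC 30 DPI, against 9.54, 6.69 and 7.63 in control, above all controls in every HC library. It was also higher than in CTX 30 DPI at an unadjusted limma p of 0.0212, with a log2 difference of 2.16, and did not pass the adjusted test. The 26 glycolysis and glycogen genes had a median of -0.22, 0.17 without HC replicate 3 and -0.49 without HC replicate 2. Aldoa (aldolase) and Pygm (muscle glycogen phosphorylase), the most abundant, had log2 fold changes of -0.23 and -0.40. Pfkfb3, which makes the activator of phosphofructokinase, was 7721, 8987 and 3166 in CTX-HC 30 DPI, against 22389, 11513 and 17484 in control, below all controls in each HC library (-1.45 ± 0.53, SE).

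Acly, the target of HC, was 481, 276 and 849 in CTX-HC 30 DPI, against 358, 254 and 372 in control. The groups overlapped, and the log2 fold change was 0.58 ± 0.48 (SE) with all libraries and 0.17 without HC replicate 3. The 23 genes of ACLY and fatty acid synthesis had a median of 0.31, 0.13 without HC replicate 3 and 0.0986 without control replicate 2. Scd1 (stearoyl-CoA desaturase) was 1911, 613 and 12067 in CTX-HC 30 DPI, against 371, 612 and 320 in control, and Fasn (fatty acid synthase) was 1213, 891 and 3849 in CTX-HC 30 DPI, against 674, 1172 and 644 in control. Both had an unadjusted p under 0.05 with HC replicate 3, by far the highest value of each, and neither did without it. The most abundant members, Acacb (the muscle acetyl-CoA carboxylase) and Me1 (malic enzyme), had log2 fold changes of -0.17 and -0.66 with overlapping groups. The 25 cholesterol synthesis genes had a median of -0.05, among them Srebf2 (the master regulator) at 0.52 ± 0.37 and Hmgcs1 at -0.05 ± 0.17 (SE).

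Markers of ongoing regeneration were uneven among the HC libraries. Myh3, the embryonic myosin, was 342, 2877 and 6722 in CTX-HC 30 DPI, against 563, 1462 and 78.9 in control, so that HC replicate 1 lay within the control range and HC replicates 2 and 3 above it. The log2 fold change of 2.22 had an SE of 1.40. Tnnt2, the cardiac and embryonic troponin T, was 30.8, 232 and 923 in CTX-HC 30 DPI, against 95.4, 177 and 23.9 in control. Myh8 (neonatal myosin) and Myl4 (embryonic light chain) were likewise highest in HC replicate 3, and the 20 embryonic genes tested had a median of 0.17, -0.10 without HC replicate 3 and 0.38 without HC replicate 1. The abundant members Flnc (filamin C) and Myo18b had log2 fold changes of -0.10 and 0.04. Myh3 was 810, 409 and 140 in CTX 30 DPI, so none of those libraries reached HC replicate 2 or 3, with a difference of 2.38 on the log2 scale that did not pass (unadjusted limma p 0.113). For Tnnt2 the difference was 2.83, with an unadjusted p of 0.0215 and an adjusted p of 1 by limma. Tnnt2 was highest in HC replicate 3, and its log2 fold change against control, 1.33 with all libraries, was 0.19 without that replicate.

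Satellite cell genes showed small, opposite shifts. Pax7 was 131, 72.3 and 170 in CTX-HC 30 DPI, against 63.8, 71.8 and 57.2 in control, above all controls although HC replicate 2 exceeded the highest control by less than 1 (log2 fold change 0.86 ± 0.39, SE). Myf5 was 60.8, 43.5 and 38.9 in CTX-HC 30 DPI, against 27.2, 29.9 and 33.7 in control. Myod1 ran the other way, at 574, 864 and 918 in CTX-HC 30 DPI, against 1274, 953 and 1407 in control, below every control with a log2 fold change of -0.64 ± 0.42 (SE). Dll1, a Notch ligand, had a log2 fold change of -0.82 ± 0.29 (SE). The 24 genes of the list split 12 against 12 with a median of 0.06, and Des (desmin) and Mef2c, the most abundant, were at -0.10 and -0.09. Of 23 neuromuscular junction and denervation genes, 8 were positive and 15 negative with a median of -0.17, and none had an unadjusted p under 0.05. Without HC replicate 3 only 3 were positive, the median was -0.32 and 1 was lower at an unadjusted p under 0.05 (background 3.31%), and without control replicate 3 the median was -0.0393. Musk, the receptor kinase that organizes the synapse, was 1193, 2165 and 902 in CTX-HC 30 DPI, against 2680, 2373 and 2676 in control. Utrn (utrophin) and Hdac4 were at 0.43 and 0.06 with overlapping groups.

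Genes of the fibro-adipogenic progenitors, the resident fibroblasts of muscle, had positive log2 fold changes in 17 of 18. Gsn (gelsolin) was 13707, 7826 and 7584 in CTX-HC 30 DPI, against 2808, 6597 and 3216 in control, with a log2 fold change of 1.26 ± 0.54 (SE). Pi16, a marker of an adventitial subset, was 452, 202 and 180 in CTX-HC 30 DPI, against 82.6, 97.4 and 96.0 in control. Pdgfra, the defining receptor, was 909, 453 and 1035 in CTX-HC 30 DPI, against 326, 400 and 367 in control. Each of these 3 genes was above all controls in every HC library. Of the 18 markers 9 did not overlap with the controls (background 4.72%) and 3 were higher at an unadjusted p under 0.05 (background 1.55%). The median was 0.82, 0.75 without HC replicate 3 and 0.51 without HC replicate 1. Cd55, abundant but also made by other cells, was at 0.09. CTX 30 DPI had a median of 0.84 against the same controls, with CTX replicate 1 highest for Gsn at 25934, Pi16 at 1166 and Pdgfra at 1399.

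Among the CTX-HC 30 DPI and control libraries the fibrillar collagens were highest in HC replicate 3. Col1a1 was 5083, 5277 and 27341 in CTX-HC 30 DPI, against 5154, 3408 and 5896 in control, and Col3a1 was 5178, 5526 and 25073 in CTX-HC 30 DPI, against 5635, 3727 and 4939 in control. HC replicates 1 and 2 lay within the control range for both fibrillar collagens. Of 21 collagens 19 were positive with a median of 0.70, and 0.22 without HC replicate 3, and none had an unadjusted p under 0.05. In CTX 30 DPI against the same controls the median was 0.75, with 21 of 21 positive. The sum over the list was 38383, 29865 and 99488 in CTX-HC 30 DPI and 121298, 24559 and 32789 in CTX 30 DPI. A rise and a single high library thus also occurred without HC. Col14a1, which coats fibrils, was 179, 126 and 372 in CTX-HC 30 DPI, against 52.7, 67.4 and 94.1 in control, and stayed above all controls in HC replicates 1 and 2. Col19a1 was 143, 126 and 110 in CTX-HC 30 DPI, against 123, 231 and 128 in control (log2 fold change -0.28 ± 0.32, SE). Among matrix remodelling genes Fn1 (fibronectin) was at 0.83 ± 0.80 and Sparc (osteonectin) at 0.38 ± 0.50 (SE). Tgfb2, a TGF-beta ligand, was 506, 703 and 299 in CTX-HC 30 DPI, against 787, 823 and 783 in control, below all controls with a log2 fold change of -0.75 ± 0.34 (SE), and -0.42 without HC replicate 3. The 14 tendon and cartilage genes had a median of 0.63 in CTX-HC 30 DPI and 1.91 in CTX 30 DPI, but without HC replicate 1 that of CTX-HC 30 DPI was -0.0369, and the abundant members Cilp and Thbs4 were at 1.11 ± 0.59 and 0.99 ± 0.66 (SE) in CTX-HC 30 DPI.

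The defining adipocyte markers were higher in CTX-HC 30 DPI and highest in HC replicate 3. Adipoq (adiponectin) was 22.2, 9.98 and 188 in CTX-HC 30 DPI, against 0.933, 5.07 and 4.46 in control. Plin1, the coat protein of the lipid droplet, was 29.4, 13.3 and 278 in CTX-HC 30 DPI, against 2.87, 5.59 and 6.65 in control. Both genes were above all controls in every HC library, at low values outside HC replicate 3. Of 15 adipocyte genes tested 13 were positive and 7 had an unadjusted p under 0.05, all higher (background 1.55%), with a median of 0.73. Without HC replicate 3 only 1 did, Lpl (background 2.42%), while the median was 0.81, and without control replicate 2 the median was 0.48. Lep (leptin) was not tested and was 6.19, 0 and 230 in CTX-HC 30 DPI, against 2.78, 3.86 and 0.885 in control. The abundant members Car3 and Plin4, which muscle fibres also express, were at -0.36 and 0.34, and the sum over the list was 80840, 48335 and 32693 in CTX-HC 30 DPI, against 38827, 47576 and 66267 in control, lowest in HC replicate 3. CTX 30 DPI had Adipoq at 30.5, 9.56 and 10.9, all above the controls too.

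Schwann cell and myelin genes had positive log2 fold changes in 16 of 17. Mbp (myelin basic protein) was 460, 1815 and 430 in CTX-HC 30 DPI, against 321, 460 and 235 in control, and Pmp22 (peripheral myelin protein) was 633, 1149 and 324 in CTX-HC 30 DPI, against 293, 468 and 249 in control. HC replicate 2 was by far the highest in both. The median was 0.82, 1.39 without HC replicate 3 and 0.45 without HC replicate 2, and none had an unadjusted p under 0.05 with all libraries. Drp2, a dystroglycan complex protein of myelinating Schwann cells, was 202, 463 and 292 in CTX-HC 30 DPI, against 126, 188 and 79.2 in control, above all controls. The amount of intramuscular nerve in each piece of tissue was not measured.

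Immune genes divided the libraries in each group rather than the groups. Gpnmb, a gene of lipid-laden and scavenging macrophages, was 84.2, 87 and 388 in CTX-HC 30 DPI, against 1405, 161 and 711 in control, and Lyz2 (lysozyme) was 417, 400 and 1991 in CTX-HC 30 DPI, against 1958, 352 and 1528 in control. The macrophage sum was 1574, 2031 and 9739 in CTX-HC 30 DPI and 8586, 2044 and 6517 in control. The median of 23 macrophage genes was -0.53 with all libraries, -1.41 without HC replicate 3 and 0.00706 without HC replicate 1. It was 0.85 without control replicates 1 and 3, which left 1 control library. The sign of this median thus depended on which libraries were kept. In CTX 30 DPI against the same controls the macrophage median was -0.77, with 2 of 23 positive. Spp1 (osteopontin) was 17.4, 47.6 and 24.1 in CTX-HC 30 DPI, against 676, 53.05 and 341 in control. Lgals3 (galectin-3) was at -0.92 ± 0.77 (SE), and at 0.03 without CTX-HC replicate 1.

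Genes of lymphocytes, mast cells and antigen presentation were highest in HC replicate 3. Cd74, the invariant chain of MHC class II, was 760, 783 and 16752 in CTX-HC 30 DPI, against 1416, 462 and 1201 in control, and its log2 fold change of 1.22 was -0.26 without HC replicate 3. Tpsb2, a mast cell tryptase, was 12.2, 11.2 and 515 in CTX-HC 30 DPI, against 3.78, 3.98 and 5.62 in control, and stood above all controls in the other HC libraries too, at values just above the minimum of 10 used for testing. Kit, the stem cell factor receptor, was 51.8, 29.8 and 241 in CTX-HC 30 DPI, against 45.3, 25.6 and 126 in control. The lymphocyte and mast cell list had a median of 2.67 over 8 genes tested, of 18 measured, and 0.42 over the 4 still tested without HC replicate 3. The members that dropped out had reached the minimum for testing only with HC replicate 3 counted. The 2.67 is therefore in part set by that library. Cd300ld5, whose family holds near-identical copies, was listed at 0 in CTX-HC replicates 1 and 2 and in all controls and was 90.6 in HC replicate 3. Gdf1, a growth factor of the TGF-beta family, was listed at 0 in all CTX-HC 30 DPI libraries and in control replicates 2 and 3 and was 568 in control replicate 1. The 30 interferon response genes had a median of -0.09, -0.47 without HC replicate 3 and 0.28 without HC replicate 2, with the abundant Irgm1 at -0.10. Of 18 complement genes 12 were positive with a median of 0.82, and 0.33 without HC replicate 3, with C3 at 1021, 916 and 4142 in CTX-HC 30 DPI, against 397, 779 and 634 in control.

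Cell cycle genes had negative log2 fold changes in 28 of 34, with a median of -0.69, -1.33 without HC replicate 3 and -0.0249 without control replicate 3. Pcna and Rrm1, the most abundant, which also serve DNA repair and nucleotide supply, were at -0.01 and 0.05. Cdk1, the mitotic kinase, was 1.75, 0.995 and 28.7 in CTX-HC 30 DPI, against 30.4, 3.84 and 65.7 in control. Control replicates 1 and 3 and HC replicate 3, the libraries high in macrophage genes, held the high values. The median log2 value of the list was 3.74, 3.59 and 6.30 in CTX-HC 30 DPI, against 5.45, 3.77 and 6.63 in control. Without control replicates 1 and 3, which left 1 control library, the median log2 fold change was 0.49. In CTX 30 DPI against the same controls the cell cycle median was -1.08, with 3 of 34 positive. For CTX-HC 30 DPI minus CTX 30 DPI it was 0.30, with 28 of 34 positive. The part of macrophages in this result was not tested.

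Immediate early genes, which respond within minutes to activity or handling, had negative log2 fold changes in 17 of 26, with a median of -0.35, -0.61 without HC replicate 3 and 0.0635 without HC replicate 2. Fos was 67.8, 82.3 and 210 in CTX-HC 30 DPI, against 353, 517 and 273 in control, with a log2 fold change of -1.79 ± 0.47 (SE), and Fosl2 was 1284, 776 and 977 in CTX-HC 30 DPI, against 1925, 1487 and 1376 in control. Both were below all controls in every HC library, and both were also negative in CTX 30 DPI, at -1.60 and -0.52. Jun and Nr4a1, the most abundant members, were at -0.29 and -0.41 with overlapping groups. Of 29 heat shock and unfolded protein genes 22 were negative with a median of -0.17, with Hspa8 and Hsp90ab1 at -0.35 and -0.09. Chac1, a glutathione-degrading target of ATF4, was above all controls in each HC library, at 1597, 1993 and 1144 in CTX-HC 30 DPI, against 1094, 292 and 953 in control. The time from death to freezing of each muscle is not given in the sources used here.

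Clock and atrophy genes had medians near 0. The median of 19 clock genes was -0.09, with Tef and Rora at 0.02 and -0.47, Bhlhe40 (a clock repressor) at 2723, 2604 and 2242 in CTX-HC 30 DPI, against 4241, 3229 and 3405 in control, and Per2 at 398, 445 and 406 in CTX-HC 30 DPI, against 362, 206 and 138 in control. Of 25 atrophy and FOXO target genes 18 were negative with a median of -0.16, but without HC replicate 3 the median was 0.0139 and 13 were positive. Fbxo32 (atrogin-1) and Sqstm1 (p62), the most abundant, were at -0.14 and -0.20, while Foxo1 itself was higher. H19, the imprinted non-coding RNA of growing muscle, was 20895, 10857 and 24055 in CTX-HC 30 DPI, against 9354, 16166 and 11754 in control, and Igf2r was at 0.06.

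**Figure D5:**
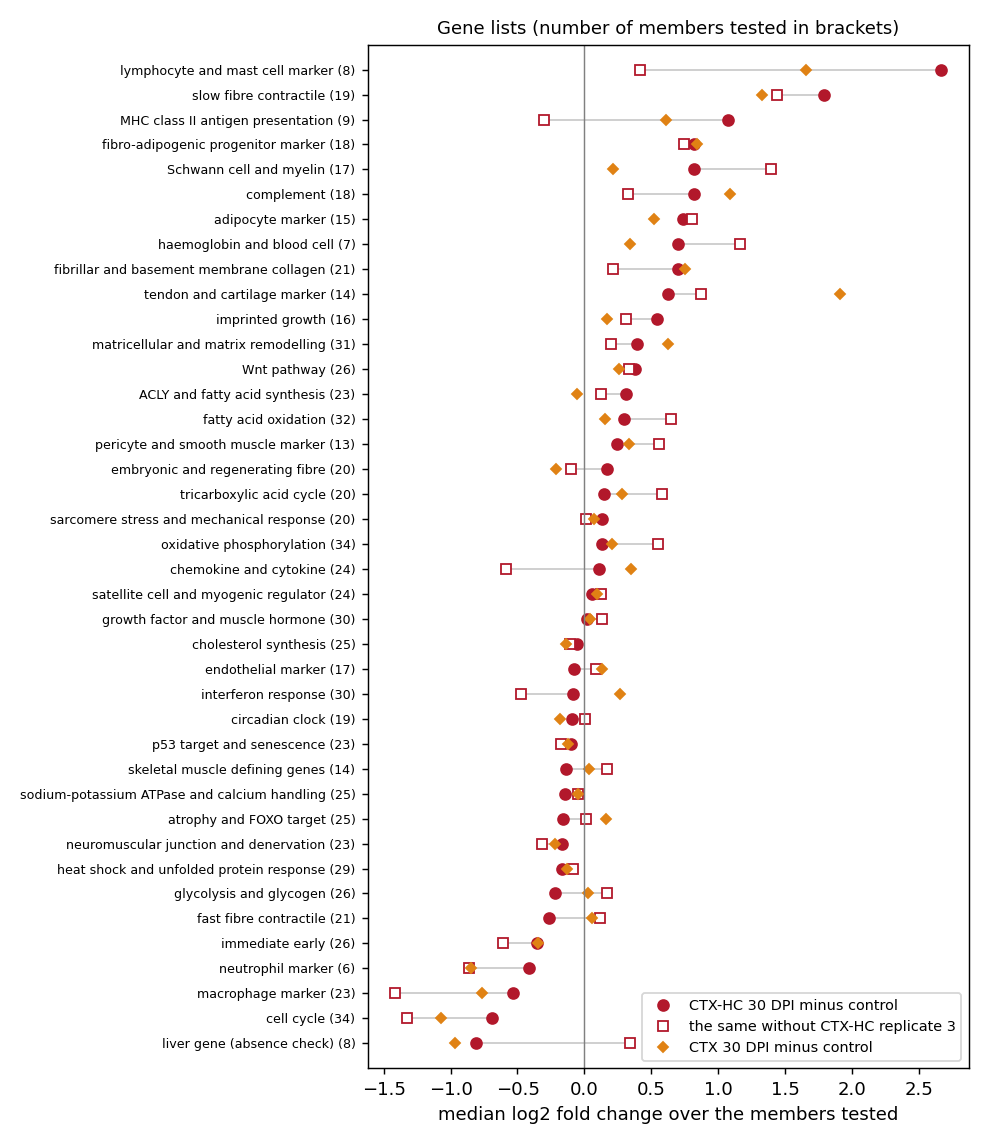
Median log2 fold change over the members tested (x axis) of each of the 40 gene lists (y axis, number tested in brackets) in CTX-HC 30 DPI over control (red circles), the same without HC replicate 3 (white squares) and CTX 30 DPI over control (orange diamonds). Slow fibre genes stay at 1.44 or above with and without HC replicate 3. The lymphocyte and mast cell list is at 2.67 over 8 genes tested, and at 0.42 over the 4 still tested without HC replicate 3. The genes that dropped out had reached the minimum for testing only with that library counted.

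CTX-HC 30 DPI and CTX 30 DPI share their controls, so their differences from control are not independent and are set side by side. CTX 30 DPI had 0 genes at an adjusted p under 0.05 by limma, and 227 (1.62%) higher and 210 (1.5%) lower at an unadjusted p under 0.05. The direct test of CTX-HC 30 DPI against CTX 30 DPI, in which the controls cancel, also had 0 genes at an adjusted p under 0.05, with 76 (0.542%) higher and 30 (0.214%) lower at an unadjusted p under 0.05. Socs2, a feedback inhibitor of growth hormone signalling, had the smallest p of that test, at 207, 261 and 224 in CTX-HC 30 DPI and 113, 85.1 and 131 in CTX 30 DPI, a log2 difference of 1.08, while control held 208, 202 and 290. Cds1, a phospholipid synthesis enzyme, was 60.2, 89.2 and 53.2 in CTX-HC 30 DPI, 16.5, 40.6 and 18.02 in CTX 30 DPI and 69.2, 30.0 and 73.3 in control. Col19a1 was 287, 209 and 338 in CTX 30 DPI, against the 110 to 143 of CTX-HC 30 DPI, a log2 difference of -1.11. In Socs2 and Cds1 the HC libraries lay in or near the control range and the CTX 30 DPI libraries below most of it, and in Col19a1 the CTX 30 DPI libraries were mostly above it. None of the 3 passed the adjusted test, where their adjusted p was 1.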

How the data were processed

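RNA was extracted from gastrocnemius with RNeasy columns, and stranded mRNA libraries were sequenced on an Illumina NovaSeq instrument. The authors aligned reads to mm10 with STAR, counted them per gene and scaled the counts by DESeq2 median of ratios. The deposited signal values are these normalized counts, not raw counts, and whole reads could not be recovered from them, so no count model was run. Depth was estimated as the sum of a library's values divided by its most frequent value between 0 and 2. Depth limits precision at low values, and intervals from counting were not available.

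Values were taken to log2 after adding 1, so fold changes are on the log2(value + 1) scale, which understates those of low genes. Genes with at least 10 in at least 3 of the 15 gastrocnemius libraries were tested. One limma model (version 3.58.1, R 4.3.3) held all 5 groups of 3 and moderated the variances along a trend in mean level. The Benjamini-Hochberg adjustment ran over all 14033 genes. Scripts were tested on simulated data. Figures were drawn with matplotlib 3.10.9.

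The members and the 40 gene lists were chosen with earlier results of these data known. Lists are described by counts and medians beside those of all genes tested. The members of a list were measured in the same libraries, so their counts are not independent. Genes were named by rule: any that passed the adjusted test with a log2 fold change of 1 or more in either direction and no overlap (there were 0), the 2 members of each list with the highest mean over all libraries, Acly and 8 muscle genes named in the study (Myh3, Tnnt2, Myh7, Myod1, Tgfb2, Col19a1, Gdf1 and Cd300ld5), and the 3 with the smallest p against CTX 30 DPI. All other genes were named after their values were seen. A few genes, among them some that the rule names, are not reported here. Gene positions and promoter windows are from RefSeq, GRCm38. Replicate numbers follow accession order and pair nothing. All 6 libraries were kept, and leaving out single libraries, other filters, pseudocounts and weights were alternatives.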

Additional observations from a re-analysis of the deposited data

How the results depend on the processing

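The count of 0 genes at an adjusted p under 0.05 was 0 to 1 when each library was left out in turn, where the 1 was Apold1 without CTX-HC replicate 1. It was 1 with a value of at least 50 required (Banp, adjusted p 0.0492), 196 at the study's threshold, 1793 with library weights and 12 with weights fitted gene by gene, an alternative added after seeing the data. The library weights did not converge and gave CTX 30 DPI replicate 3 a weight of 20.35 and CTX-HC replicate 3 one of 0.1063. The 388 genes at an unadjusted p under 0.05 became 631 with no filter, 4438 with library weights, 2521 with gene by gene weights, 958 in a fit of the control and both day 30 groups without HC replicate 3 (also added later), and 242 to 991 when each library was left out. CTX-HC 30 DPI against CTX 30 DPI gave 868 genes with library weights, 60 at the study's threshold and 0 to 1 when each library was left out, the 1 without CTX 30 DPI replicate 2. CTX 30 DPI against control gave 3287 with library weights, 229 at the study's threshold and 0 when each library was left out.

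The alternatives were followed for 101 genes, the 12 chosen by smallest p and those named by rule. Other genes named above were not among them. Of their 2012 log2 fold changes, 1966 kept their side of the threshold with no reversal counted, 37 newly passed it and 9 reversed. A change of sign was counted only if the value with all libraries exceeded its SE, so the 1966 can hold smaller changes of sign. The changed value could lie within its own SE. The reversed ones were Tnnt2 with library weights (-0.6248), Lgals3 without CTX-HC replicate 1 (0.03378, where leaving out each library in turn gave -1.69 to 0.03378), Cd74 with library weights (-0.4695), with gene by gene weights (-0.3482) and without HC replicate 3 in either fit (-0.2576, range -0.2576 to 1.972), and Ccng1 without HC replicate 3 in either fit (0.088, range -0.7496 to 0.088) and with gene by gene weights (0.03573). The cause was not tested. Of 800 list medians, 779 moved by no more than the spread between libraries and 21 by more. That spread was the pooled SD of a list's library medians within CTX-HC 30 DPI and control. HC replicate 3 widened it for lists where it stood apart, so the 779 do not show stability. They include changes of sign, such as the MHC class II median, at 1.08 with all libraries and -0.30 without HC replicate 3. No paired analysis was possible because the gastrocnemius labels carry no replicate numbers.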

Other observations

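Some gene groups fell outside the comparisons above. Of 26 Wnt pathway genes tested, 20 were positive in CTX-HC 30 DPI against control, with a median log2 fold change of 0.38. That median was 0.34 without HC replicate 3, 0.73 without HC replicate 2 and 0.58 without control replicate 3. Wnt4, a ligand made by muscle fibres, was 354, 881 and 131 in CTX-HC 30 DPI, against 844, 873 and 697 in control. Among 30 growth factor and muscle hormone genes the median was 0.02. Mstn (myostatin), which limits muscle growth, was 715, 1882 and 86.2 in CTX-HC 30 DPI, against 1107, 2243 and 1461 in control, and was lowest in HC replicate 3. Mt2, a metallothionein, was 95.1, 75.9 and 187 in CTX-HC 30 DPI, against 512, 132 and 698 in control. Nnat (neuronatin), an imprinted gene, was 14.8, 2.15 and 105 in CTX-HC 30 DPI and listed at 0 in all 3 controls. These genes were named after their values were seen, and none passed the adjusted test.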
